A study of Rattus norvegicus with 10 samples.

Results

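The transcripts of 9 genes of the circadian clock and its immediate outputs were followed array by array in the rat mammary gland. The member genes were Per1, Per2, Cry2, Bhlhe40, Bhlhe41, Dbp, Nr1d1, Nr1d2 and Tef, and a probe set was taken as a member where the platform annotation gave it one of these symbols and no other. This gave 12 probe sets for 9 genes, out of 15866 probe sets without the array's control features. Cry2 had 2 probe sets and Nr1d2 had 3, and the brightest probe set by mean log2 signal stands for such a gene unless another is named. All member probe sets were kept whatever their brightness.

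The soy group comprised female Sprague-Dawley rats given a purified AIN-93G diet with soy protein isolate, and the casein group received the same diet with casein as its protein. Both diets began on gestation day 4 and whole glands were collected on postnatal day 21, at weaning. Each diet had 5 arrays, each of 1 colour,, numbered 147, 149, 155, 157 and 159 for soy and 10, 18, 20, 6 and 7 for casein. Per the labels, cRNA targets were prepared in parallel from pooled RNA. Arrays may therefore share animals, and a p-value here covers only array-to-array spread, part of which may be technical. The labels give neither the hour of collection nor a litter, batch or scan date. Clock transcripts depend on the hour at which tissue is taken, and the question here was whether they differed between the diets or between single arrays.

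The mammalian clock is a feedback loop. The activators CLOCK and BMAL1 bind E-box sequences and switch on the Per and Cry genes, whose proteins then repress CLOCK and BMAL1. The nuclear receptors REV-ERB alpha and beta, encoded by Nr1d1 and Nr1d2, repress Bmal1 through ROR response elements. Dbp and Tef encode activators that bind D-box sequences, where the repressor NFIL3 competes with them.

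The motifs through which the loop is closed were looked for in RefSeq promoter windows of the GRCr8 rat assembly, which run from 250 bases before to 50 bases after the annotated start. All 9 member genes matched, with 10 windows since Nr1d1 has 2. The E-box CACGTG, which reads the same on both strands, was found in 4 of the 9 genes (Bhlhe40, Bhlhe41, Tef and Nr1d1) and in 6.42% of all 33469 windows. The variant CACGTT was searched on both strands and was found in Cry2, Per2 and Nr1d1, against 4.83% of all windows. A D-box, TTATGTAA or TTACGTAA on either strand, was found in Per2 alone among the members, against 1.01% of all windows. The ROR element core TAGGTCA was in none of the 9 and in 2.63% of all windows, and the cyclic AMP response element TGACGTCA was in none of the 9 and in 1.83%. The E-box and its variant differ in their last base and cannot occupy the same position on one strand. These are letter matches in a short window and say nothing of binding in this tissue. The stretches of 80 bases below are shown because each holds a match to one of these motifs, with that match in capitals and each read 5′ to 3′ on the gene's strand. The Bhlhe40 stretch lies at chr4:143174200-143174279 on the plus strand, the Bhlhe41 stretch at chr4:180569361-180569440 on the minus strand, and the Tef stretch at chr7:115206592-115206671 on the plus strand. For Per2 the D-box match is shown, and its CACGTT match lies outside that stretch. The Nr1d1 stretch lies at chr10:84229603-84229682 and the Per2 stretch at chr9:99497142-99497221, both on the minus strand. Bmal1 is no member and is shown for its match to the ROR element core, at chr1:176766275-176766354 on the plus strand.
Bhlhe40: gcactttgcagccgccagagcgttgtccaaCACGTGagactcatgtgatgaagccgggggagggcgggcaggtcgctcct
Bhlhe41: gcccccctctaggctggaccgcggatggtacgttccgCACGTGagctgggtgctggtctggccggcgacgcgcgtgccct
Tef: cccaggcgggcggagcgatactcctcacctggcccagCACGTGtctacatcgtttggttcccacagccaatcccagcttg
Nr1d1: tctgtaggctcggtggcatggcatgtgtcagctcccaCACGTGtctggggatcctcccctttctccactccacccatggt
Per2: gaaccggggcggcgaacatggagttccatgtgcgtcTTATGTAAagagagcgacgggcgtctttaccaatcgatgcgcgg
Bmal1: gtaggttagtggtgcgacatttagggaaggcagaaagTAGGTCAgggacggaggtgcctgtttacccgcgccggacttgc

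The arrays did not hold the same mix of tissue. The mean log2 signal of 17 skeletal muscle markers ranged from 5.65 to 12.5 over the soy arrays and from 5.87 to 13.1 over the casein arrays. It was high in soy 147, 149 and 157 and in casein 6. The mean of 14 lymphocyte markers ranged from 6.18 to 9.68 in soy arrays and from 6.43 to 9.45 in casein arrays, and was low in soy 149 and casein 6. The mean of 12 luminal epithelial markers ranged from 5.90 to 8.98 in soy arrays and from 6.02 to 9.59 in casein arrays, and that of 11 adipocyte markers from 10.7 to 11.8 in soy arrays and from 11.0 to 11.5 in casein arrays. The mean of 12 nerve and Schwann cell markers ranged from 7.89 to 9.02 in soy arrays, highest in soy 149, and from 7.98 to 8.34 in casein arrays. Of these 12 markers 9 were higher in soy (median 0.29), as were all 17 muscle markers (median 2.30). Higher in soy were also 8 of 14 lymphocyte, 7 of 11 adipocyte and 3 of 12 luminal markers. By brightest probe set, 2 nerve markers, Mal and Cldn19, had an unadjusted limma p under 0.05, where the other 4 lists had 0. The share over all probe sets was 5.31%. A dimmer probe set of the luminal marker Prlr was also past that threshold (0.80 ± 0.17, SE). No marker of these 5 lists was at the floor, a signal of 1, in any array. The lowest log2 values were 0.85 (muscle), 2.38 (nerve), 2.85 (luminal), 3.41 (lymphocyte) and 7.32 (adipocyte). Detection calls were not given, so being above this floor does not show that a marker was detected. In such whole-gland samples, fewer cells of a type and less RNA per cell cannot be told apart. The ratio of the 3′ to the 5′ beta-actin probe sets, a measure of RNA integrity, was 0.50 to 0.65 on the log2 scale in soy arrays and 0.29 to 0.63 in casein arrays (exact permutation p = 0.15, two-sided).

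No clock transcript passed the adjusted test between the diets. In limma's moderated test, Benjamini-Hochberg adjusted across the whole array, 0 of the 12 member probe sets were called at an adjusted p of 0.05, against 0% of all 15866. At an unadjusted p of 0.05, 1 of the 12 was past the threshold (Bhlhe40, lower in soy), against 5.31% of all probe sets. By the exact permutation test, likewise 1 of the 12 was below 0.05 before any adjustment, against 6.12% of all probe sets. The soy and casein arrays did not separate completely for any of the 12, against 0.996% of all probe sets. The difference, soy minus casein, was below 0 for 7 of the 9 genes, and for 7323 of all 15866 probe sets. Its median over the 9 genes was -0.20 on the log2 scale, where the median over all probe sets was 0.02.

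**Figure D1:**
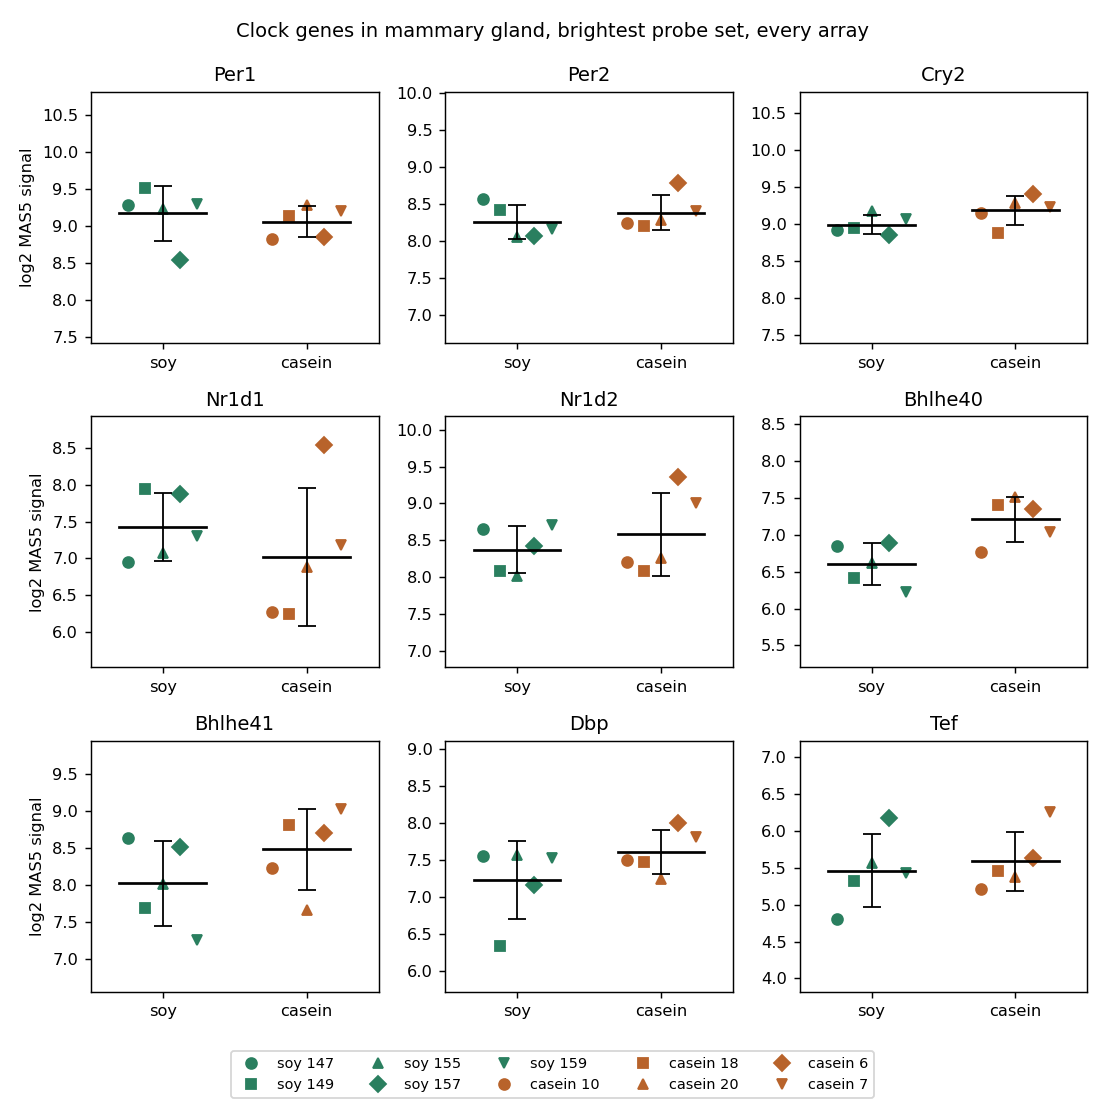
Log2 MAS5 signal of each of the 9 clock genes (brightest probe set) in the 5 soy arrays, on the left of each panel, and the 5 casein arrays, on the right; the horizontal line is the mean and the bar the SD. The diets overlap in every panel, and Bhlhe40 is the only gene past an unadjusted p of 0.05.

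The Period genes encode repressors that pair with cryptochromes. Per1 had a log2 signal of 9.28, 9.51, 9.23, 8.54 and 9.30 in soy arrays 147, 149, 155, 157 and 159, against 8.82, 9.13, 9.28, 8.85 and 9.20 in casein arrays 10, 18, 20, 6 and 7. The lowest of the 10 arrays was soy 157 and the highest soy 149, so the soy arrays enclosed the casein arrays. The difference was 0.11 ± 0.17 (SE, n = 5 each; limma adjusted p = 0.95), and leaving out 1 array moved it between 0.03, without soy 149, and 0.27, without soy 157. Per2 had 8.57, 8.41, 8.05, 8.06 and 8.16 in the soy arrays, against 8.25, 8.20, 8.28, 8.78 and 8.40 in the casein arrays. Its highest value was in casein 6 and its lowest in soy 155. The Per2 difference was -0.13 ± 0.15 (SE, limma adjusted p = 0.92), -0.03 without casein 6 and -0.21 without soy 147.

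Cry2 encodes a cryptochrome, and its 2 probe sets differed in their spread. The brightest, 1372548_at, had 8.92, 8.94, 9.17, 8.85 and 9.06 in the soy arrays, against 9.15, 8.87, 9.28, 9.40 and 9.22 in the casein arrays. The whole range over 10 arrays was 1.46-fold, and every soy array was under the mean of casein while the ranges overlapped. The difference was -0.20 ± 0.11 (SE, 95% interval -0.44 to 0.05, limma adjusted p = 0.86), and -0.02 without the 4 arrays of highest muscle signal. The dimmer Cry2 probe set, 1369446_at, ranged from 5.55 to 7.80 in soy arrays and from 6.64 to 7.96 in casein arrays, with a difference of -0.38 ± 0.41. Leaving out 1 array moved that difference between -0.61, without soy 157, and -0.05, without soy 147. The 2 probe sets followed each other weakly over the 10 arrays (Pearson r = 0.25, a description).

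The REV-ERB receptors both had their highest value in casein 6, and their r over the 10 arrays was 0.54 (0.18 without casein 6), given as a description. Nr1d1 had 6.94, 7.94, 7.07, 7.87 and 7.31 in soy arrays 147, 149, 155, 157 and 159, against 6.27, 6.24, 6.88, 8.54 and 7.18 in casein arrays 10, 18, 20, 6 and 7. Casein arrays held both the highest and the lowest values, a range of 4.91-fold. The difference was 0.40 ± 0.41 (SE, limma adjusted p = 0.91), and it was 0.78 without casein 6 and 0.0078 with the muscle marker mean as a covariate. Nr1d1 was at 6.94 to 8.54 (median 7.91) in the 4 arrays of highest muscle signal and at 6.24 to 7.31 (median 6.97) in the other 6. The part of muscle tissue in these values was not tested further.

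Nr1d2 had, with probe set 1390430_at, 8.65, 8.08, 8.01, 8.42 and 8.71 in the soy arrays, against 8.21, 8.09, 8.26, 9.36 and 9.01 in the casein arrays. Casein 6 and casein 7 were above every soy array, and the other 3 casein arrays lay within the soy range. The difference was -0.21 ± 0.26 (SE, limma adjusted p = 0.93), and -0.02 without casein 6. A second probe set, 1370541_at, moved with it over the arrays (r = 0.79) and had a difference of -0.07 ± 0.18. The dimmest of the 3, 1370540_at, ranged from 3.72 to 5.69 in soy arrays and from 5.09 to 6.12 in casein arrays, a difference of -0.52 ± 0.37, and its r with the other two was -0.15 and 0.37.

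Bhlhe40 and Bhlhe41, also known as Dec1 and Dec2, encode repressors that compete for the E-box. Bhlhe40 had 6.84, 6.41, 6.61, 6.89 and 6.22 in soy arrays 147, 149, 155, 157 and 159, against 6.76, 7.40, 7.51, 7.35 and 7.03 in casein arrays 10, 18, 20, 6 and 7. All 5 soy arrays were below the casein mean, and 4 of the 5 casein arrays were above every soy array, with casein 10 inside the soy range. The difference was -0.61 ± 0.20 (SE, 95% interval -1.06 to -0.17), with an unadjusted limma p of 0.011, an exact permutation p of 0.024 and an adjusted p of 0.86. Leaving out any 1 array moved it between -0.72 and -0.52. The mean signal of Bhlhe40 lay at percentile 31.8 of all probe sets, below the 40th percentile used as a brightness filter in an alternative.

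Bhlhe41 had 8.64, 7.69, 8.02, 8.52 and 7.25 in the soy arrays, against 8.23, 8.82, 7.66, 8.71 and 9.03 in the casein arrays. The lowest value was in soy 159 and the highest in casein 7, and casein 20 lay below 4 of the soy arrays. The difference was -0.46 ± 0.31 (SE, limma adjusted p = 0.88). Without 1 array it lay between -0.67 and -0.27.

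Dbp and Tef encode activators of the D-box. Dbp had 7.55, 6.34, 7.57, 7.16 and 7.53 in the soy arrays, against 7.50, 7.47, 7.25, 7.997 and 7.82 in the casein arrays. Soy 149 stood lowest, and casein 6 and 7 were above every soy array. The difference was -0.38 ± 0.25 (SE, limma adjusted p = 0.88), and -0.15 without soy 149. Without the 4 arrays of highest muscle signal it was 0.04. Tef had 4.80, 5.32, 5.56, 6.18 and 5.42 in the soy arrays, against 5.22, 5.45, 5.37, 5.63 and 6.26 in the casein arrays. The lowest value was in soy 147 and the highest in casein 7. The Tef difference was -0.13 ± 0.30 (SE, limma adjusted p = 0.97), at a mean log2 signal of 5.52.

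**Figure D2:**
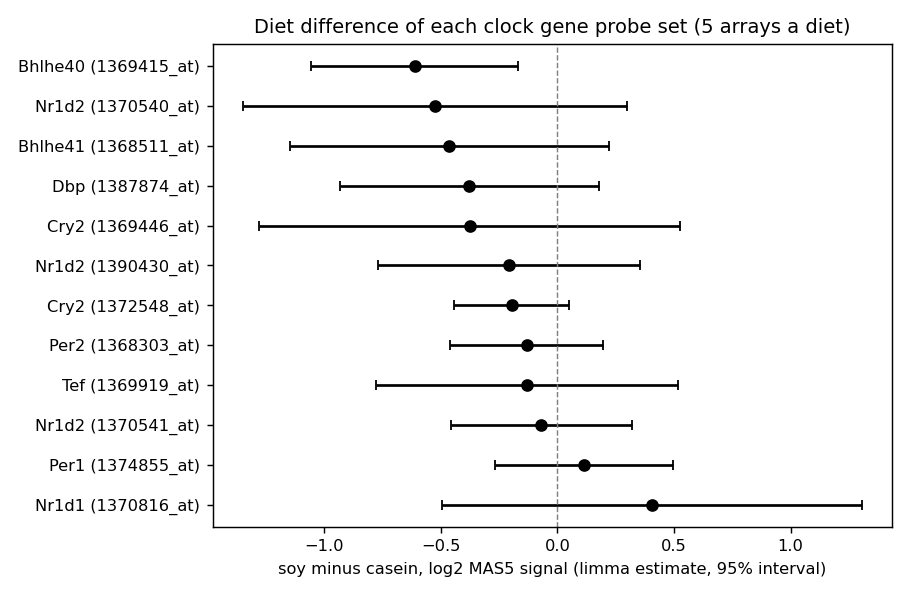
Difference in log2 signal, soy minus casein, for the 12 member probe sets, with 95% intervals from limma (n = 5 arrays per diet). The interval of Bhlhe40, from -1.06 to -0.17, is the only one of the 12 that leaves out 0.

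The spread between arrays of one diet differed among the members. The residual SD of Nr1d1 was at percentile 86.1 of all probe sets, that of Bhlhe41 at 79.8, Nr1d2 at 73.5, Tef at 73.1 and Dbp at 71.1. Per1 was at percentile 52.1, Bhlhe40 at 51.3, Per2 at 34.7 and Cry2 at 14.5. These are the brightest probe sets, and Cry2 1369446_at was at percentile 86.0 and Nr1d2 1370540_at at 82.2. Of the 9 genes, 5 were at or above the 40th percentile of mean signal, and Tef, Nr1d1, Dbp and Bhlhe40 were below it. Ranked only against probe sets at or above that percentile, those 5 genes stood higher, Bhlhe41 at 94.7 and Nr1d2 at 91.2. Per1 was then at 73.2, Per2 at 51.9 and Cry2 at 23.0. Beyond this ranking, the part of brightness in these spreads was not tested.

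Across the members, 2 casein arrays stood high. In casein 6, 8 of the 9 genes were above their own mean over the 10 arrays, by 0.48 on average over all 9, and 5 of them had their highest value there. Per1 was the exception in casein 6, at -0.26 from its mean. In casein 7, 8 of the 9 were above their mean, by 0.32 on average, and Nr1d1 was the exception at -0.04. In the soy arrays 3 to 5 of the 9 were above their mean, and in casein 10, 18 and 20 between 2 and 4. The same count was not made over all probe sets, so these counts cannot show whether the pattern belongs to the clock genes. Casein 6 also had the highest muscle marker mean, at 13.1, and a low lymphocyte mean, at 6.43. Casein 7 had a muscle mean of 7.42 and the highest luminal mean, at 9.59. Soy 149 resembled casein 6 in muscle (12.5) and lymphocyte (6.18) markers. It had higher nerve (9.02 against 8.20) and adipocyte (11.79 against 11.05) means than casein 6. In soy 149, 3 of the 9 members were above their mean, among them Nr1d1 (by 0.72, against 1.31 in casein 6). The log2 ratio of the 3′ to the 5′ beta-actin probe sets was low in casein 6 (0.41) and casein 7 (0.38). That ratio was lowest in casein 10 (0.29), where 2 of the 9 members were above their mean. The same ratio for Gapdh was also lowest in these 3 arrays, at 0.19, 0.21 and 0.18. Whether tissue mix, RNA integrity or the hour of collection moved the members in casein 6 and 7 was not tested, and the labels give no hour.

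**Figure D3:**
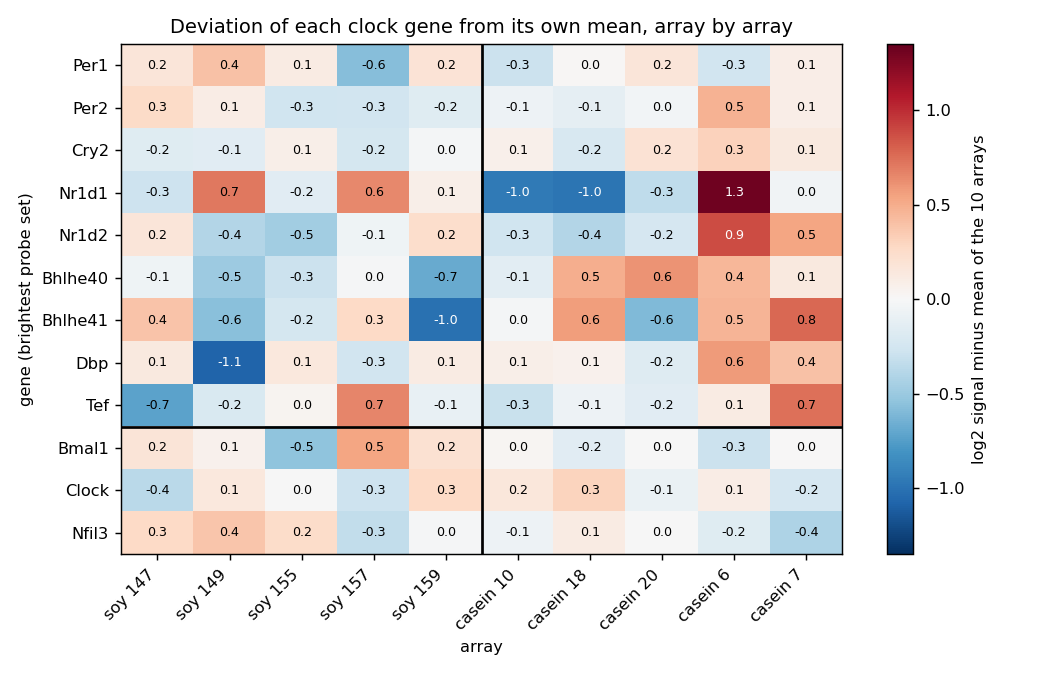
Deviation of each clock gene from its own mean over the 10 arrays, in log2 units, with soy arrays on the left and casein arrays on the right; Bmal1, Clock and Nfil3 stand below the line. Casein 6 and casein 7 have 8 of the 9 genes above their mean.

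Whether the members moved together from array to array was examined over all pairs in the 10 arrays. There were 63 pairs, 36 of them between members and 27 of a member with Bmal1, Clock or Nfil3. Of the 36 member pairs, 24 had a positive Pearson r (median 0.23), and of the 27 others, 20 had a negative one (median -0.18). The pairs share genes and arrays and are not independent, and signs were not counted over pairs of other genes. The median of the member pairs was 0.12 without casein 6 (21 of 36 positive) and 0.14 without casein 7 (22 of 36). With the 2 arrays farthest from the median of each pair's first gene left out, it was 0.04 (20 of 36 positive), and 14 of the 27 other pairs were negative. By a two-sided permutation test, 3 of the 63 had an unadjusted p under 0.05 and 0 passed after Benjamini-Hochberg adjustment, the smallest adjusted p being 0.48. By Spearman's rho, likewise 3 were under 0.05 unadjusted and 0 adjusted.

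The lowest r was that of Tef with Nfil3, whose products compete for the D-box (r = -0.78, permutation p = 0.0076; rho = -0.68, permutation p = 0.034; adjusted p of r 0.48). Leaving out 1 array moved r between -0.84 and -0.67, and r was -0.68 without the 4 arrays of highest muscle signal. Without casein 7 and soy 157, the arrays farthest from the Tef median, r was -0.38, over a narrower range of Tef. The mean signal of Tef lay at percentile 15.9 of all probe sets, and detection calls were not given. Per2 with Nr1d2 gave r = 0.68 (permutation p = 0.028, adjusted 0.77; rho = 0.47, permutation p = 0.18) and r = 0.26 without the 2 farthest arrays. Per1 with Nfil3 gave r = 0.65 (permutation p = 0.041, adjusted 0.77; rho = 0.68, permutation p = 0.034), 0.55 without the 2 farthest arrays and 0.09 without the 4 arrays of highest muscle signal. Bhlhe40 with Bhlhe41 gave r = 0.55 (permutation p = 0.10, adjusted 0.77; rho = 0.52, permutation p = 0.13), and leaving out 1 array moved r between 0.31, without soy 159, and 0.90, without casein 20.

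**Figure D4:**
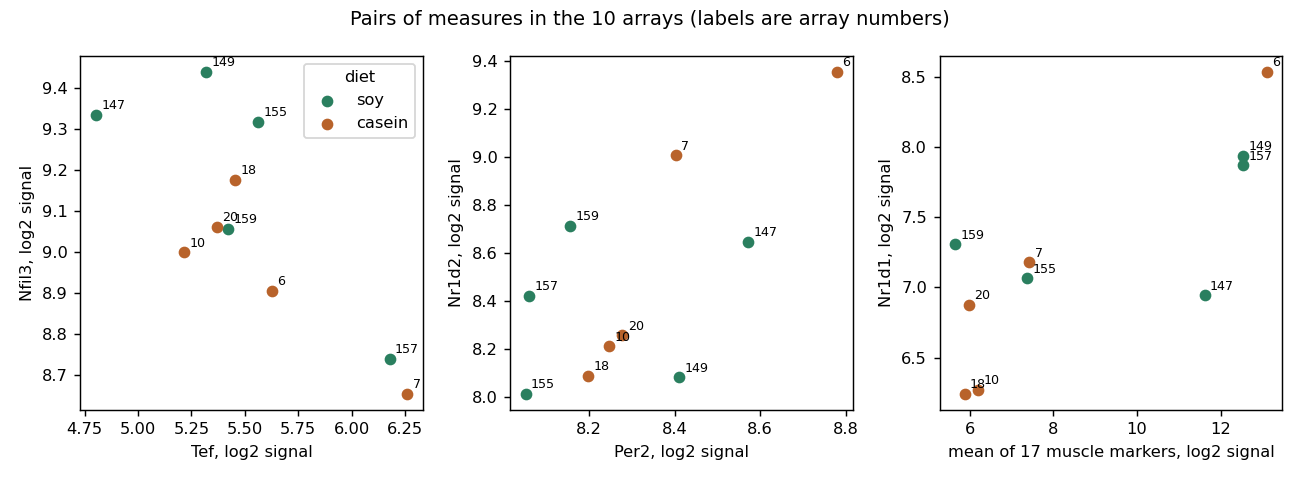
Log2 signal in the 10 arrays of Nfil3 against Tef (left), Nr1d2 against Per2 (middle) and Nr1d1 against the mean of 17 muscle markers (right), with soy and casein arrays in different colours and each point labelled with its array number. Casein 6 is the highest point in the middle and right panels, and neither gene pair passed the adjusted permutation test over 63 pairs.

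The rest of the loop was measured in part. Of 16 other core clock symbols, 8 were on the annotated array. The 16 hold both names of Bmal1 (Arntl) and of Bmal2 (Arntl2), so they stand for fewer genes. Of the 8 measured, 0 were called or had an unadjusted p under 0.05, where 5.31% of all probe sets were past that unadjusted threshold. Cry1 and Npas2 were not named in the annotation and were not analysed here. Bmal1, the loop's activator, had 8.33, 8.22, 7.61, 8.69 and 8.37 in soy arrays, against 8.18, 8.0, 8.15, 7.86 and 8.16 in casein arrays, a difference of 0.17 ± 0.18 (SE, limma adjusted p = 0.92). The lowest and the highest Bmal1 values were both in soy arrays. Clock differed by -0.09 ± 0.15 with its brightest probe set, while its 2 other probe sets lay on the other side of 0, at 0.54 ± 0.35 and 0.16 ± 0.11. Nfil3 differed by 0.22 ± 0.15, Hlf, a further D-box activator, by 0.03 ± 0.19 (0.87 ± 0.76 with its other probe set), and Per3 by -0.25 ± 0.49 at a mean log2 signal of 3.16.

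Genes around the clock gave the same count of calls. They were counted by brightest probe set, and 5.31% of all probe sets had an unadjusted p under 0.05. Of 17 kinases, phosphatases and ligases that act on clock proteins, 0 were called and 2 had an unadjusted p under 0.05, both lower in soy: Csnk1a1 (-0.23 ± 0.10) and Fbxw11 (-0.18 ± 0.07), with limma adjusted p = 0.86 for both. The other probe sets of Csnk1a1 were at -0.14 ± 0.09 and 0.27 ± 0.16. The dimmest probe set of Csnk2a1 was also past the unadjusted threshold (-1.19 ± 0.40), where its others were at 0.10 ± 0.13 (brightest) and -0.02 ± 0.13. Of 14 clock-controlled outputs, 0 were called and 2 were past the unadjusted threshold, both higher in soy. Klf9, a Kruppel-like transcription factor that glucocorticoids also induce, had 10.9, 11.4, 11.0, 11.1 and 11.1 in soy arrays, against 10.5, 10.6, 10.8, 10.9 and 10.4 in casein arrays. Its difference was 0.48 ± 0.13 (SE; limma unadjusted p = 0.0035, limma adjusted p = 0.86). Only casein 6 reached the soy range, at 10.92. The 2 other Klf9 probe sets had differences of -0.10 ± 0.56 and 0.25 ± 0.26. Tspo, a mitochondrial outer membrane protein, differed by 0.34 ± 0.14.

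Of 12 glucocorticoid-induced genes, which follow the daily corticosterone rhythm, 0 were called and 2 were past the unadjusted threshold, both higher in soy. Over all probe sets 5.31% were past that threshold. A dimmer Cebpd probe set was also past it (0.83 ± 0.35), where the brightest was at -0.11 ± 0.15. Fkbp5 differed by 0.58 ± 0.21 and Pdk4 by 0.44 ± 0.19 (limma adjusted p = 0.86 for both). The median of the 12 was 0.22, against 0.02 over all probe sets. Of 15 immediate early genes, which respond within minutes to handling, 0 were called and 1 was past the unadjusted threshold. This was Jund (2.16 ± 0.82, higher in soy), whose casein SD was 2.02. Its dimmer probe set was also past that threshold (1.09 ± 0.32). Both Jund probe sets were dim, at a mean log2 signal of 5.67 and 3.94. The median of the 15 was 0.01.

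The probe sets whose array pattern was most like that of a member were sought among 8143 with a single gene symbol at or above the 40th percentile of brightness. Over the 10 arrays, Nr1d1 was most like Acot13 (r = 0.949), Phka1 (0.929), Myog (0.927), Trak2 (0.925) and Cacna2d1 (0.922). Phka1 encodes a muscle phosphorylase kinase subunit and Myog is a muscle transcription factor. Dbp was most like Coro2b (0.907), Rnf2 (0.891), Rnf34 (0.880), Top2a (0.873) and Ppp2r5c (0.870). Per1 was most like Hs1bp3 (0.913), Rps6ka4 (0.901), Pomk (0.891), Net1 (0.882) and Anxa7 (0.880). None of these 15 was on the list of other core clock genes. Only 3 genes of that list (Clock, Bmal1 and Nfil3) were bright enough to be searched, and the members were left out. The absence of clock genes here therefore cannot show whether Nr1d1, Dbp and Per1 followed the clock. The highest of many correlations over 10 arrays is high by selection.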

How the data were processed

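Biotin-labelled cRNA from whole mammary gland was hybridised to 10 arrays of 1 colour, 5 per diet. The deposited values are linear intensities per probe set that the authors made with MAS5, per the submitters' processing notes; version, settings and detection calls were not given in the sources used. The 2% trimmed mean of each array is 500.1, so the arrays had been scaled to a common level, and the number of arrays limits the precision. Probe sets were named from the platform annotation: of 15923 deposited, 57 controls were left out, and of the 15866 others 12783 had 1 gene symbol, 312 several and 2771 none. All 12 member probe sets kept their symbol by gene ID in the RefSeq table.

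Values were floored at 1, taken to log2 and tested without a filter with limma 3.58.1 in R 4.3.3 (lmFit, eBayes with an intensity trend), soy minus casein, Benjamini-Hochberg adjusted across the 15866. Single values were also tested over all 252 assignments of the arrays, where the smallest two-sided p is 0.0079. Correlations used 100000 permutations drawn with numpy 2.4.6, or all permutations where the 4 arrays of highest muscle signal or the 2 farthest were dropped. The ranks and the exact test of single values came from scipy 1.17.1. The fit was run on simulated data with independent noise for each probe set. Such data lack the tissue differences of these arrays, so they cannot show which diet differences could be found here. The members and lists were chosen with earlier results of these data known. All member probe sets are named; of each companion list, up to 4 genes of smallest unadjusted p could be named with values; the 5 most alike probe sets are given for Dbp, Per1 and Nr1d1. Alternatives were quantile normalization, median centring, filters at the 40th and 60th percentiles, an offset of 16, no trend, array weights, the actin ratio and the muscle signal as covariates, and leaving out arrays. Those without the 4 arrays of highest muscle signal, and with muscle signal regressed out of the correlations, were added after seeing the data.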

Additional observations from a re-analysis of the deposited data

Results flagged for a closer look

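In 46 groups of 5 arrays (23 clock probe sets in each diet), 4 had 1 array whose gap to its nearest neighbour exceeded the Dixon critical value of 0.71 as a share of the group's range; chance gives about 1 in 20. Per1 was low in soy 157, at 8.54 against 9.23 in the next array (share 0.713). Nr1d2 probe set 1370540_at was low in soy 155, at 3.72 against 5.39 (share 0.847), and the diet difference of that dim probe set was -0.18 without it. Rorb, which encodes a nuclear receptor of the ROR family, was low in soy 149, at 4.98 against 6.38 (share 0.902). Hlf was low in casein 10, with probe set 1374709_at at 7.13 against 7.44 (share 0.866).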

How the results depend on the processing

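No probe set was called in any of the 20 alternatives, members included, and no pair of genes passed the adjusted permutation test in any alternative. Of 224 recomputed differences of member probe sets, 216 kept their direction and 8 turned it; none was past the adjusted threshold, and the smallest adjusted p was 0.61. Nr1d2 1370541_at turned to 0.042 with array weights, 0.027 with the actin ratio as covariate and 0.135 without the 4 arrays of highest muscle signal, and lay between -0.16 and 0.047 when 1 array was left out. Tef lay between -0.31 and 0.040 when 1 array was left out. Dbp was 0.038 without the 4 arrays of highest muscle signal. The cause was not tested. The filter at the 40th percentile removed Bhlhe40, Dbp, Nr1d1, Tef, Cry2 1369446_at and Nr1d2 1370540_at, so no filtered value exists for them. Quantile normalization and median centring moved the median difference of all probe sets by -0.02. Bhlhe40 stayed between -0.77 and -0.54 in the alternatives that kept all arrays or dropped the 4. No paired analysis was possible because the soy and casein arrays share no replicate number.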
